A study of Mus musculus with 8 samples.

Results

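The Bcl2 family members Bcl2, Bcl2l1, Bcl2l11, Mcl1, Bax, Bbc3 and Pmaip1 and the initiator caspases Casp8 and Casp9 were followed in the mouse hemisphere after permanent middle cerebral artery occlusion (PMCAO) and injection of pituitary adenylate cyclase-activating polypeptide (PACAP38). All probes of the array design that carried one of these gene names and were not control spots were taken, which gave 16 probes for the 9 genes, of 41174 probes with 27962 gene names in all. Bcl2, Bcl2l1 and Bcl2l11 had 3 probes each, Mcl1 had 2, and the other 5 genes had 1 each. On every array 14 of the 16 probes were well above background in both channels and none was saturated. The remaining pair, both of Bcl2l11, was not well above background on any array, so no fold is given for it.

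The mice were C57BL/6J males of 8 to 12 weeks, without transgene or knockout. PMCAO mice had the right middle cerebral artery closed with an intraluminal filament and left closed, and sham surgery stopped at laying open the external carotid artery. All received 1 µl into the cerebral ventricle, holding 1 pmol PACAP38 or saline alone, right after surgery, and the ipsilateral (right) hemisphere was taken 6 h or 24 h later. The hemisphere opposite the injected side was measured, without olfactory bulb and cerebellum, and it mixes infarct core, penumbra and tissue that was not ischemic. Each of the 8 groups was 1 pool of RNA from 3 mice, and the PMCAO mice were chosen for neurological grades 1 and 2. On each two-colour array PACAP38 RNA was set against saline RNA of the same surgery and time, once with PACAP38 in Cy5 (array 1) and once with PACAP38 in Cy3 (array 2). Both arrays hold the same pooled RNA and count as 1 replicate, so no test exists within a comparison and both values are given.

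Proteins of the Bcl2 family meet at the outer mitochondrial membrane. Anti-apoptotic members such as Bcl2, Bcl-xL (from Bcl2l1) and Mcl1 hold back Bax and Bak1, the effectors that form pores and release cytochrome c, and the BH3-only proteins Bim (from Bcl2l11), Puma (Bbc3) and Noxa (Pmaip1) bind and neutralise the anti-apoptotic members. Released cytochrome c activates caspase-9 through Apaf1, whereas caspase-8 is activated at death receptors such as Fas, and both then cleave the executioner caspases. In the ischemic brain these routes are studied as part of the delayed death of neurons around the infarct core, and PACAP38 is known as a peptide that protects neurons.

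Probes on which the results turn are shown by the first 30 of their 60 bases, 5′ to 3′, as the array files give them. The Mcl1 probes are printed because they gave different ratios, and they are separate stretches of 1 transcript, NM_008562 in the array design, and the others because their genes carry the values described most fully below. Positions are those of the array design on build mm7. Exon, intron or UTR was not assigned, since no annotation of that build was used here.
Bcl2, A_52_P534870, chr1:106438098-106438157, minus strand: catataatggctctttgtttgtgttgttag
Mcl1, A_51_P238786, chr3:95536882-95536941, plus strand: gctgcttggaaagatggctctcagcaaaat
Mcl1, A_52_P93933, chr3:95535570-95535629, plus strand: tgcagcttctctagttagaaatgtatttct
Casp8, A_51_P247799, chr1:59095846-59095905, plus strand: gtgaagaactgcgtttcctaccgagatcct
Bbc3, A_51_P248122, chr7:14080459-14080518, plus strand: tgggagcggggagggacggcccagcctgta
The brightest Mcl1 probe lay downstream of the other Mcl1 probe. The GC content of the whole probe was 35.0% for Bcl2 A_52_P534870 and Mcl1 A_52_P93933 and 45.0% for Mcl1 A_51_P238786.

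One array stood apart before any comparison was made. The log signals of sham 6 h array 2 had a median r of 0.932 with the other arrays of its slide, against 0.989 to 0.99 for the other 7 arrays, and 10.65% of its spots were marked as outliers, against 0.32% to 3.09%. Where PMCAO over sham ratios of a probe at 6 h are given, array 1 and array 2 are therefore shown separately. The array 1 value is the result without that array. The 6 h and 24 h arrays were on different slides, so time and slide cannot be told apart. Over all probes the PACAP38 over saline ratios of the 2 arrays of a comparison, turned the same way, correlated at r = -0.148 (sham 6 h), -0.14 (PMCAO 6 h), -0.417 (sham 24 h) and 0.053 (PMCAO 24 h), and the direction of a ratio rests on the dyes in the labels. For PMCAO over sham the same r was 0.346 (saline 6 h), 0.127 (PACAP38 6 h), 0.518 (saline 24 h) and 0.307 (PACAP38 24 h).

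The first question was what PMCAO did to these genes. At 24 h after PMCAO with saline, the brightest Bcl2 probe was at 0.546-fold of sham, Pmaip1 was at 3.03-fold, the upstream Mcl1 probe was at 3.07-fold and Casp8 was at 1.53-fold. Casp9, at 1.00-fold, and Bax, at 1.15-fold, stayed close to sham. These are ratios of 1 PMCAO pool to 1 sham pool, with the 2 dyes averaged, and in a whole hemisphere fewer cells of a type and less RNA per cell cannot be told apart. Past the fold means above 1.5 or below 0.75 on the mean of both arrays, the limits used in the study. By that rule 5 of the 16 member probes were higher and 3 were lower (8.46% and 14.6% of all probes), and 6 passed the limit on both arrays (13.5% of all probes). The lower ones were the 3 Bcl2 probes, and the higher ones were Pmaip1, Casp8, the upstream Mcl1 probe, 1 Bcl2l1 probe and a Bcl2l11 probe that was not well above background. By the brightest probe of each gene, 2 of 9 were higher and 1 was lower. The median log2 ratio of the member probes was 0.37, beside -0.021 over all probes.

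With PACAP38 instead of saline, 2 of the 16 member probes were higher in PMCAO than in sham at 24 h and 2 were lower (5.59% and 10.3% of all probes), and 4 passed on both arrays (6.66%). The lower pair was Bcl2 and a Bcl2l11 probe that was not well above background, and the higher pair was Pmaip1 and the upstream Mcl1 probe. The median log2 ratio of the members was 0.11, beside -0.025 over all probes. At 6 h with saline, 4 of the 12 member probes with values on both arrays were higher and 2 were lower (22.7% and 27.7% of all probes), and 1 passed on both arrays (20.7%). At 6 h with PACAP38, 2 of 12 were higher and 3 were lower (18.5% and 25.3%), and 2 passed on both arrays (12.3%). The probes higher at 6 h with saline were Bax, Pmaip1, Casp8 and a Bcl2l11 probe that was not well above background. The lower pair there was the brightest and the dimmest Bcl2 probe. With PACAP38 Casp8 and the same Bcl2l11 probe were higher, and the same Bcl2 pair and 1 Bcl2l1 probe were lower. At 6 h the share of all probes past either limit was as large as that of the members with either injection.

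**Figure D1:**
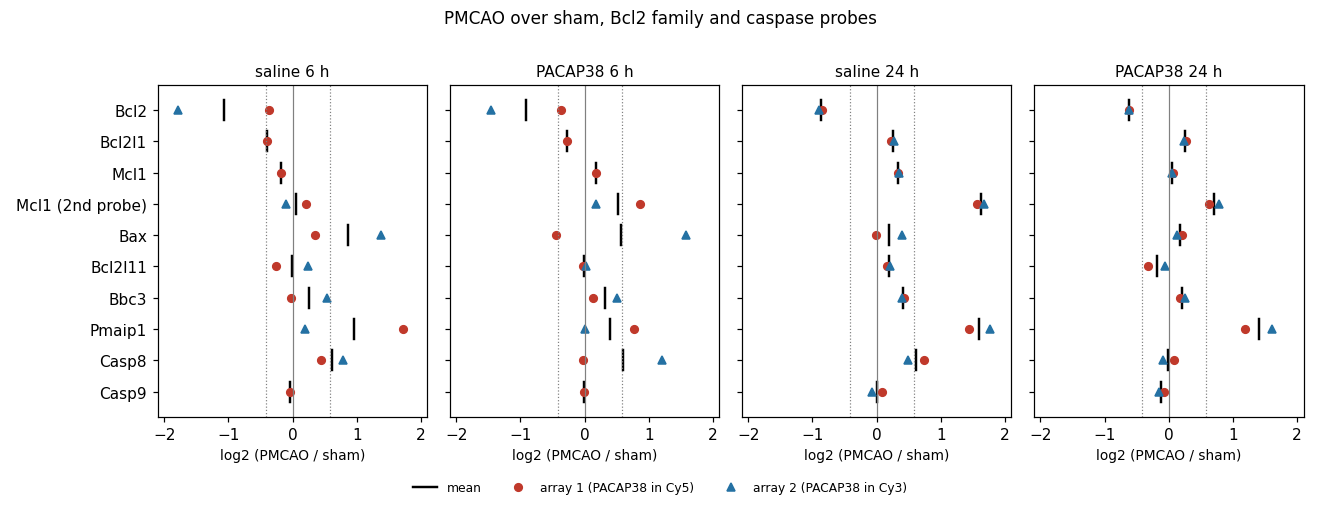
Log2 ratio of PMCAO over sham for the brightest probe of each of the 9 genes and for the upstream Mcl1 probe, in 4 comparisons; circles are array 1, triangles array 2, black bars the mean, and dotted lines the limits of 1.5-fold and 0.75-fold. At 24 h circle and triangle nearly coincide for Bcl2 (-0.85 and -0.89 with saline), and at 6 h they lie far apart (-0.36 and -1.79).

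Among the anti-apoptotic members, Bcl2 was the gene whose probes were all below 0.75-fold of sham at 24 h with saline. The normalised log2 level of its brightest probe on arrays 1 and 2 at 24 h was 11.29 and 11.45 in sham with saline and 11.38 and 11.27 in sham with PACAP38. After PMCAO the level was 10.43 and 10.56 with saline and 10.77 and 10.65 with PACAP38. All 4 PMCAO values at 24 h were below all 4 sham values. The log2 ratio of PMCAO over sham was -0.85 and -0.89 with saline (0.546-fold) and -0.62 and -0.61 with PACAP38 (0.654-fold). At 6 h the level was 10.81 and 12.11 in sham with saline, 10.96 and 11.96 in sham with PACAP38, 10.45 and 10.32 in PMCAO with saline and 10.59 and 10.49 in PMCAO with PACAP38. The PMCAO values were again the lower ones, but the sham values differed between the 2 arrays by more than PMCAO differed from sham on array 1. Without sham 6 h array 2 the log2 ratio was -0.36 with saline and -0.37 with PACAP38, against -1.79 and -1.46 on array 2.

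The mean was also taken over the 4 pairs of PMCAO and sham pools. The pools are of separate mice, but the saline and the PACAP38 pair of one time are channels of the same arrays, and the pairs of a time point correlated at 0.664 over the probes, so the 4 pairs are not independent and the p-values that take them so are too small. For Bcl2 the mean was a log2 ratio of -0.87 ± 0.11 (SE; limma, adjusted p = 0.122 over all probes), lower in 4 of 4 pairs. No member probe and none of the 41174 probes passed in that test (0.0% called; 8904 probes had an unadjusted p under 0.05, and the smallest adjusted p was 0.11). With the time point as a random block the SE rose to 0.18 for Bcl2 (limma, adjusted p = 0.532) and to 0.31 for Pmaip1 (limma, adjusted p = 0.532), and no probe passed (3644 had an unadjusted p under 0.05, the smallest adjusted p was 0.532). Without sham 6 h array 2 the Bcl2 mean was -0.55 ± 0.12 (limma, adjusted p = 0.202). With the 2 arrays entered as separate pools and the array number as a block, limma called 2296 probes, Bcl2 (adjusted p = 0.0219) and Pmaip1 (adjusted p = 0.0396) among them, although both arrays hold the same RNA.

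The other Bcl2 probes were also lower at 24 h with saline. The probe A_51_P380013 gave a log2 ratio of -0.64 and -0.54 (0.665-fold), and the dim probe A_52_P438280 gave -0.66 and -0.74 (0.616-fold), or a mean of -0.30, inside the limit, with the normexp background correction, which adds an offset of 50 to the signals. With PACAP38 they were nearer to sham, at -0.20 and -0.58 (0.764-fold) and at -0.052 and -0.28 (0.892-fold). At 6 h the dim probe gave -1.47 and -2.07 with saline (a mean of -0.56 with that correction) and -0.057 and -1.35 with PACAP38. The probe A_51_P380013 had a value at 6 h on array 1 only, 0.15 with saline and 0.25 with PACAP38, in the opposite direction to the brightest probe. The 24 h minus 6 h difference of that probe was log2 -0.69 ± 0.14 (limma, adjusted p = 0.0426), in a test that called 21.7% of all probes. The call was lost with a replicate block (adjusted p = 0.14), with the 75th percentile scaling (adjusted p = 0.0614) and without sham 6 h array 2 (adjusted p = 0.188, limma).

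Mcl1, a short-lived anti-apoptotic protein, was read by probes that gave unlike ratios. The upstream probe A_52_P93933 had levels at 24 h of 9.24 and 9.31 in sham with saline, 9.45 and 9.25 in sham with PACAP38, 10.81 and 10.98 in PMCAO with saline and 10.08 and 10.03 in PMCAO with PACAP38. All PMCAO values were above all sham values, and the saline pool was the highest. Its log2 ratio of PMCAO over sham was 1.57 and 1.67 with saline (3.07-fold) and 0.63 and 0.78 with PACAP38 (1.63-fold). At the brightest probe A_51_P238786 the ratio was 0.32 and 0.34 with saline (1.26-fold) and 0.060 and 0.046 with PACAP38 (1.04-fold). The direction was shared by both probes and the size was not. Over the 4 pairs the mean log2 ratio was 0.72 ± 0.27 (limma, adjusted p = 0.225) at the upstream probe and 0.096 ± 0.12 (limma, adjusted p = 0.629) at the brightest. At 6 h the upstream probe gave 0.21 and -0.10 with saline and 0.87 and 0.17 with PACAP38, and its sham level differed by array, 10.18 and 11.01 with saline.

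Bcl2l1, which encodes Bcl-xL, was close to sham at its brightest probe, with a log2 ratio at 24 h of 0.23 and 0.27 with saline and 0.26 and 0.23 with PACAP38 (1.19-fold in both). The dimmer probe A_52_P510877 gave 0.48 and 0.98 with saline (1.66-fold; log2 0.40 with the normexp correction, inside the limit) and 0.54 and 0.53 with PACAP38 (1.45-fold). The third probe A_51_P299454 gave 0.46 and 0.68 (1.48-fold) and 0.33 and 0.55 (1.36-fold). All 3 probes were thus higher in PMCAO on both arrays of both 24 h comparisons. At 6 h the brightest probe had a value on array 1 only, -0.40 with saline and -0.27 with PACAP38, and A_51_P299454 gave -0.36 and -0.074 with saline and -0.50 and -0.48 with PACAP38 (0.711-fold; log2 -0.19 with that correction). The ratio was higher at 24 h than at 6 h by 0.59 ± 0.12 (limma, adjusted p = 0.0453) at the brightest probe and by 0.86 ± 0.16 (limma, adjusted p = 0.0367) at A_51_P299454. That test called 8799 of 40508 probes (21.7%), 3 of the 16 member probes among them, and without sham 6 h array 2 it called 68 probes and no member (adjusted p of these 3 from 0.141 to 0.203). With a replicate block the brightest probe was lost (limma, adjusted p = 0.105) and A_51_P299454 was not (limma, adjusted p = 0.0284). The replicates of this test are the saline and PACAP38 pairs of a time, which share arrays. On simulated data it recovered 1 of 67 probes at a log2 difference of 2. The simulated spread held the real time difference and its pairs were independent, so that figure does not give the power of the test here.

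Bax, the effector that forms pores in the mitochondrial membrane, lay inside the limits at 24 h. Its level at 24 h was 11.23 and 10.50 in sham with saline, 10.73 and 11.21 in sham with PACAP38, 11.23 and 10.90 in PMCAO with saline and 10.94 and 11.34 in PMCAO with PACAP38, so the groups overlapped. The log2 ratio of PMCAO over sham, taken within a dye, was -0.0050 and 0.40 with saline. With PACAP38 it was 0.21 and 0.13 (1.13-fold), of 1 sign on both arrays. At 6 h array 2 gave 1.37 with saline and 1.58 with PACAP38, and array 1 gave 0.34 and -0.45. The mean over 4 pairs was 0.45 ± 0.15 (limma, adjusted p = 0.207), and 0.064 ± 0.16 (limma, adjusted p = 0.85) without sham 6 h array 2.

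Among the BH3-only genes Pmaip1, which encodes Noxa, a partner of Mcl1, had the largest ratio. At 24 h its level was 9.24 and 8.95 in sham with saline and 9.21 and 8.86 in sham with PACAP38. After PMCAO it was 10.67 and 10.71 with saline and 10.40 and 10.47 with PACAP38. The PMCAO and sham values did not overlap, and the saline pool was again above the PACAP38 pool. The log2 ratio was 1.44 and 1.77 with saline (3.03-fold) and 1.19 and 1.62 with PACAP38 (2.65-fold). At 6 h it was 1.72 on array 1 and 0.19 on array 2 with saline, and 0.77 and 0.0077 with PACAP38, so the large value lay on array 1 here, which does not use the array that stood apart. Over 4 pairs the mean was 1.09 ± 0.23 (limma, adjusted p = 0.144), and 1.38 ± 0.18 (limma, adjusted p = 0.184) without sham 6 h array 2, higher in 4 of 4 pairs.

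Bbc3, which encodes Puma, had levels at 24 h of 10.88 and 10.90 in sham with saline, 11.01 and 10.95 in sham with PACAP38, 11.30 on both arrays in PMCAO with saline and 11.18 and 11.20 in PMCAO with PACAP38. The groups did not overlap, but the step was small. The log2 ratio was 0.42 and 0.39 with saline (1.33-fold) and 0.17 and 0.25 with PACAP38 (1.16-fold). At 6 h Bbc3 gave -0.019 and 0.54 with saline and 0.13 and 0.51 with PACAP38. Its mean over 4 pairs was 0.30 ± 0.090 (limma, adjusted p = 0.184). Bcl2l11, which encodes Bim, gave 0.17 and 0.21 with saline and -0.33 and -0.052 with PACAP38 at its only probe above background, with a mean over 4 pairs of -0.0046 ± 0.10 (limma, adjusted p = 0.981). The 3 BH3-only genes thus had ratios at 24 h with saline of 3.03-fold, 1.33-fold and 1.14-fold.

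Casp8, the initiator at death receptors, was a dim gene, with processed signals of 40.4 to 323.0 over all channels. Its level at 24 h was 7.57 and 7.76 in sham with saline, 7.58 and 7.66 in sham with PACAP38, 8.31 and 8.25 in PMCAO with saline and 7.66 and 7.57 in PMCAO with PACAP38. The saline PMCAO pool was above the 3 other pools, which overlapped. The log2 ratio of PMCAO over sham was 0.74 and 0.49 with saline (1.53-fold) and 0.082 and -0.091 with PACAP38 (0.997-fold). At 6 h array 1 gave 0.44 with saline and -0.025 with PACAP38, and array 2 gave 0.79 and 1.21. With the normexp correction the saline ratio was log2 0.50 at 24 h and 0.18 at 6 h and the PACAP38 ratio at 6 h was 0.14, all inside the limit. The mean over 4 pairs was 0.46 ± 0.15 (limma, adjusted p = 0.195), and 0.26 ± 0.15 (limma, adjusted p = 0.425) without sham 6 h array 2. Casp9, the initiator at the apoptosome, gave 0.076 and -0.075 with saline and -0.069 and -0.16 with PACAP38 at 24 h, and its mean over 4 pairs was -0.043 ± 0.086 (limma, adjusted p = 0.766).

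**Figure D2:**
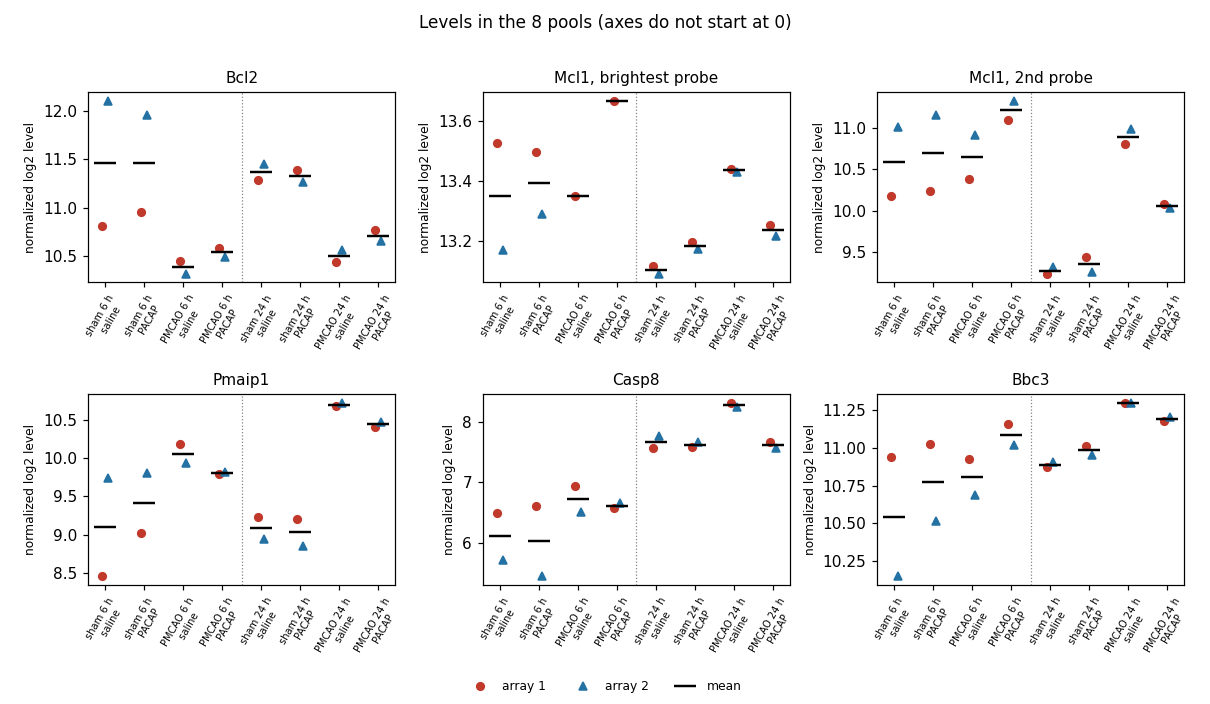
Normalised log2 level of Bcl2, both Mcl1 probes, Pmaip1, Casp8 and Bbc3 in the 8 pools, 6 h left and 24 h right of the dotted line; circles are array 1, triangles array 2 and bars their mean, and the axes differ between panels and do not start at 0. At 24 h the PMCAO pools lie below sham for Bcl2 and above sham for Pmaip1 and the upstream Mcl1 probe, and Casp8 is above sham in the saline pool (8.31 and 8.25) but not in the PACAP38 pool (7.66 and 7.57).

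The second question was what PACAP38 did in each setting, read within arrays as the ratio of PACAP38 over saline. In the PMCAO hemisphere at 24 h, the upstream Mcl1 probe was at 0.571-fold with PACAP38 (log2 -0.70 and -0.92) and Casp8 was at 0.652-fold (log2 -0.60 and -0.64), the same direction and similar size on both arrays. These were the member probes past the limit on both arrays, and with the normexp correction they remained past it (log2 -0.81 and -0.52), 2 of 16 (4.57% of all probes). By the mean, 3 of 16 member probes were lower and none was higher (8.18% and 2.99% of all probes), and the third was a Bcl2l11 probe that was not well above background. By the brightest probe 1 of 9 genes was lower, Casp8, since the brightest Mcl1 probe was at 0.879-fold (log2 -0.19 on both arrays). The median log2 ratio of the members was -0.07, beside 0.0 over all probes. These values share the 2 PMCAO pools with the PMCAO over sham values above and are not independent of them.

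The other members differed less between PACAP38 and saline in PMCAO at 24 h. Pmaip1 was at 0.855-fold (log2 -0.24 and -0.21) and Bbc3 at 0.947-fold (log2 -0.089 and -0.067). Bcl2 was at 1.18-fold (log2 0.36 and 0.12), and its probe A_51_P380013 gave 0.042 and 0.17. Each of these had 1 sign on both arrays and lay inside the limits. Bax (-0.26 and 0.47), Bcl2l1 (0.19 and -0.20), Casp9 (0.019 and -0.14) and the dim Bcl2 probe A_52_P438280 (0.47 and -0.32) turned sign between the arrays. Bcl2l11 gave 0.0009 and -0.54.

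At 6 h after PMCAO the brightest probes of all genes lay inside the limits. By the mean 1 of 15 member probes was higher and none was lower (5.41% and 6.9% of all probes), and none passed on both arrays (2.77%). The probe was the dim Bcl2 probe A_52_P438280, at 1.67-fold (log2 0.93 and 0.55), or log2 0.11 with the normexp correction. The upstream Mcl1 probe, at 1.48-fold (log2 0.71 and 0.42), lay just inside the limit and in the opposite direction to its value at 24 h. The brightest Mcl1 probe had a value on array 1 only, 0.31, with the same sign. Bbc3 was at 1.21-fold (log2 0.23 and 0.33), Bcl2 at 1.11-fold (log2 0.13 and 0.17) and Pmaip1 at 0.837-fold (log2 -0.39 and -0.13). Bax, Bcl2l1, Bcl2l11 and Casp8 turned sign between the arrays.

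In sham mice the members lay close to saline. At 6 h none of 13 member probes with both arrays was higher and none was lower (3.98% and 7.48% of all probes), and none passed on both arrays (1.83%). The mean ratios nearest to the limits at 6 h were 1.24-fold for Pmaip1 (log2 0.57 and 0.058) and 0.799-fold for the dim Bcl2 probe (log2 -0.47 and -0.18). At 24 h 1 of 16 was higher and 1 was lower (1.75% and 3.87%), and 1 passed on both arrays (1.12%). The lower was the dim Bcl2 probe at 0.705-fold (log2 -0.17 and -0.84; -0.25 with the normexp correction, inside the limit), and the higher was a Bcl2l11 probe that was not well above background. Casp8 and the upstream Mcl1 probe, the pair past the limit in PMCAO at 24 h, were at 0.972-fold (log2 0.040 and -0.12) and 1.05-fold (log2 0.23 and -0.078) in sham at 24 h. Bax gave -0.49 and 0.69 in sham at 24 h, a gap between arrays larger than any mean PACAP38 ratio of a probe well above background.

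**Figure D3:**
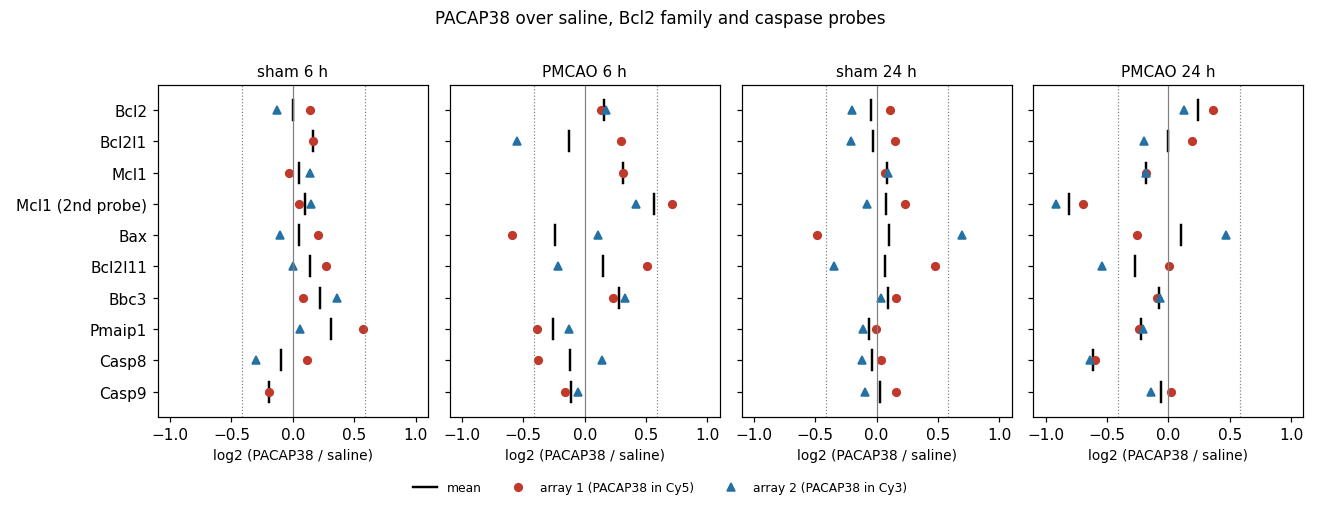
Log2 ratio of PACAP38 over saline for the brightest probe of each of the 9 genes and for the upstream Mcl1 probe, in 4 comparisons; circles are array 1, triangles array 2, black bars the mean, and dotted lines the limits of 1.5-fold and 0.75-fold. Past the lower limit on both arrays lie the upstream Mcl1 probe (-0.70 and -0.92) and Casp8 (-0.60 and -0.64) in PMCAO at 24 h.

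Over the 4 pairs of PACAP38 and saline pools no member passed, and limma called none of the 41174 probes (0.0%; 2057 had an unadjusted p under 0.05, the smallest adjusted p was 0.871). The mean log2 ratio was -0.22 ± 0.12 for Casp8 (limma, adjusted p = 0.871), 0.13 ± 0.073 for Bbc3 (limma, adjusted p = 0.871), 0.090 ± 0.062 for Bcl2 (limma, adjusted p = 0.871), and -0.017 ± 0.26 for the upstream Mcl1 probe (limma, adjusted p = 1). Whether the PACAP38 ratio differed between PMCAO and sham was tested with the 2 times as replicates. No member and none of all probes passed (0.0%; 2503 had an unadjusted p under 0.05, the smallest adjusted p was 0.794), with differences of -0.30 ± 0.21 for Casp8, 0.22 ± 0.061 for Bcl2 and -0.21 ± 0.58 for the upstream Mcl1 probe. At the upstream Mcl1 probe the PMCAO values at 6 h and 24 h had opposite signs, and the difference at 24 h alone has no replicate.

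PACAP38 acts through adenylate cyclase, and the cAMP response element that CREB binds, TGACGTCA, was therefore looked for in the RefSeq promoters (build GRCm38.p6, 250 bases before to 50 after each start), on both strands. Promoters were listed for 8 of the 9 genes, 13 in all, not for Pmaip1. The 8-base element was in none of the 13, beside 1.79% of all 32851 promoters. Its first 6 bases, TGACGT, were in 1 member promoter, that of Bcl2 (7.51% of all promoters), and TGACG was in 3, those of Bcl2, Mcl1 and Bbc3 (20.81%). The shorter motifs lie within the longer ones. The Bcl2 promoter is shown around its match, at position -107 from the start, with the 5 matching bases in capitals. It lies at chr1:106714333-106714457 on the minus strand.
Bcl2 promoter: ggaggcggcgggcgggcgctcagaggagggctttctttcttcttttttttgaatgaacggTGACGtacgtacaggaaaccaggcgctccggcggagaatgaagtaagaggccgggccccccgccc
A match is a run of letters and not a measured site. The PACAP38 ratios of Bcl2 are those given above.

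The genes around the family were read from lists of the same pathway, by the brightest probe of each gene. Among 10 p53 and stress regulators, 5 were higher and 1 was lower in PMCAO than in sham at 24 h with saline (8.46% and 14.6% of all probes; median log2 ratio 0.55), and 3 were higher and none lower with PACAP38 (5.59% and 10.3%; median 0.28). With PACAP38 over saline in PMCAO at 24 h, 1 was higher and 3 were lower (2.99% and 8.18% of all probes; median -0.21). Cdkn1a, the cell cycle inhibitor p21, was at 6.56-fold with saline and 4.72-fold with PACAP38. Trib3, a stress pseudokinase, was at 2.41-fold and 2.02-fold, and Trp53inp1 was at 1.53-fold and 1.52-fold. Gadd45a, a DNA damage response gene, was at 1.63-fold and 0.938-fold. The 3 lower with PACAP38 over saline, on both arrays, were Cdkn1a (0.669-fold), Gadd45a (0.698-fold) and Jun (0.741-fold), and the higher one was Foxo3, which was well above background in 8 of 16 channels. Trp53 itself was at 0.809-fold and 0.815-fold. None of these 10 passed in the mean over 4 pairs, where the smallest adjusted p was 0.11 (limma).

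Among 9 genes of the death receptor pathway, on which Casp8 depends, 5 were higher and none was lower at 24 h with saline (8.46% and 14.6% of all probes; median log2 ratio 0.68), and 3 were higher and none lower with PACAP38 (5.59% and 10.3%; median 0.14). Fas was at 3.13-fold with saline and 2.11-fold with PACAP38, and Tnfrsf1a, the TNF receptor, had log2 ratios of 1.63 and 0.94. Tnfrsf10b, the mouse TRAIL receptor, was not well above background in the sham pool with saline and was at least 2.35-fold higher in PMCAO, a bound set by the dimmest probes above background. Comparing PACAP38 with saline directly in PMCAO at 24 h, 5 of the 9 were lower and none was higher (8.18% and 2.99% of all probes; median log2 ratio -0.45, beside 0.0 over all probes). On both arrays 2 of the 9 passed (4.57% of all probes), Tnfrsf10b and Tnfrsf1a. Tnfrsf10b, well above background in 7 of 16 channels, was at least 2.12-fold lower. Tnfrsf1a was at 0.61-fold (log2 -0.57 and -0.86) and Fas at 0.734-fold (log2 -0.27 and -0.62). The fit over 4 pairs called none of the 9 (smallest adjusted p 0.182, limma).

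Casp4, an inflammatory caspase, was at 3.60-fold of sham at 24 h with saline, 1.69-fold with PACAP38, and 0.491-fold with PACAP38 over saline in PMCAO. It and Casp8 were the 2 of 10 caspases below 0.75-fold there (8.18% of all probes), and Casp14 was at 0.711-fold of sham with PACAP38. Among 7 inhibitor of apoptosis genes, 3 were higher and 1 was lower than sham at 24 h with saline (8.46% and 14.6%), 2 were higher and 1 lower with PACAP38 (5.59% and 10.3%), and 3 were lower with PACAP38 over saline in PMCAO (8.18%). Among the 3, Naip1 was well above background in 1 of 16 channels and is given no fold. Naip2 was at 2.01-fold with saline, 1.33-fold with PACAP38 and 0.732-fold with PACAP38 over saline. Birc3 (cIAP2) was at 4.07-fold with saline and 1.78-fold with PACAP38, and at 0.452-fold with PACAP38 over saline. Of 8 anti-apoptotic relatives with probes, 2 were lower with PACAP38 in PMCAO at 24 h (8.18% of all probes), Bcl2a1b (0.598-fold) and Bcl2a1c (0.67-fold), whose near-identical paralogs may share probe signal. Bcl2a1b, a relative that immune cells express, was at 4.36-fold of sham with saline and 2.29-fold with PACAP38, and Bcl2a1c at 3.37-fold and 1.87-fold. Of the 6 apoptosome and mitochondrial factors none passed either limit in either 24 h comparison, and Apaf1, the partner of Casp9, was at 1.08-fold with saline and 1.25-fold with PACAP38. Bak1, the other effector, had log2 ratios of 0.42 and 0.14, and Bid, which caspase-8 cleaves, was at 1.57-fold and 1.34-fold. In the mean over 4 pairs no gene of these lists passed (limma).

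Markers of other cell types differed between the same pools. The neutrophil genes S100a9 and S100a8 were at 71.2-fold and 69.2-fold of sham at 24 h with saline, 5.50-fold and 5.16-fold with PACAP38, and 0.118-fold and 0.133-fold with PACAP38 over saline in PMCAO. The summed level of the 7 neutrophil markers measured was 51591 and 46908 in PMCAO at 24 h with saline, 6093 and 5658 with PACAP38, and 762 to 1168 in the sham pools of 24 h, and 5 of the 7 were lower with PACAP38 (8.18% of all probes, also for the lists that follow). Of the 7, 5 were well above background on both arrays in PMCAO at 24 h with saline, and 2 were with PACAP38. In sham at 24 h the numbers were 4 with saline and 3 with PACAP38. The count of lower neutrophil genes and their sum thus include genes that were not well above background. The sum is linear, so the brightest genes weigh most. Over sham at 24 h, 4 of the 7 were higher with saline (8.46% of all probes; median log2 ratio 0.874). With PACAP38 2 were higher (5.59%; median 0.107), and none was lower with either injection (14.6% and 10.3%). In sham at 24 h, PACAP38 over saline was higher for 2 of the 7 and lower for 2 (1.75% and 3.87%). The sums cover only markers with a value in every channel. Microglia and macrophage markers (6 of 8 in the sum) summed to 8294 and 8084 in PMCAO with saline and 6966 and 6339 with PACAP38 (3 of 8 lower). In the sham pools of 24 h they summed to 7287 to 8340. Over sham 2 of the 8 were higher and none lower with saline (8.46% and 14.6% of all probes; median log2 ratio -0.072). With PACAP38 1 was higher and 5 were lower (5.59% and 10.3%; median -0.444). Endothelial markers (5 of 6 in the sum) summed to 18120 and 16510 and to 11280 and 12687 (4 of 6 lower). In the sham pools of 24 h they summed to 13647 to 15728. Oligodendrocyte markers (5 of 6 in the sum) summed to 183838 and 187384 with saline and 146739 and 126845 with PACAP38, beside 158309 to 181378 in the sham pools. With PACAP38 over saline 2 of 6 were lower (median log2 ratio -0.35). Astrocyte markers (3 of 6 in the sum) summed to 16249 and 16451 and to 13802 and 13954 (none of 6 lower). In sham the 2 arrays lay far apart, at 4493 and 11897 with saline and 4403 and 11368 with PACAP38. The median log2 ratio of the 6 astrocyte markers over sham was 0.205 with saline and 0.036 with PACAP38. Neuron markers, which define the tissue, were well above background in all pools, 8 of 8. The 5 of them in the sum gave 94819 and 90255 with saline and 95555 and 90786 with PACAP38 (none of 8 lower). In the sham pools of 24 h they summed to 101981 to 109925, above all the PMCAO sums, and none of the 8 was below 0.75-fold of sham with either injection (14.6% and 10.3% of all probes). The part of these markers in the Bcl2, Casp8, Mcl1, Birc3 and Casp4 values was not tested.

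**Figure D4:**
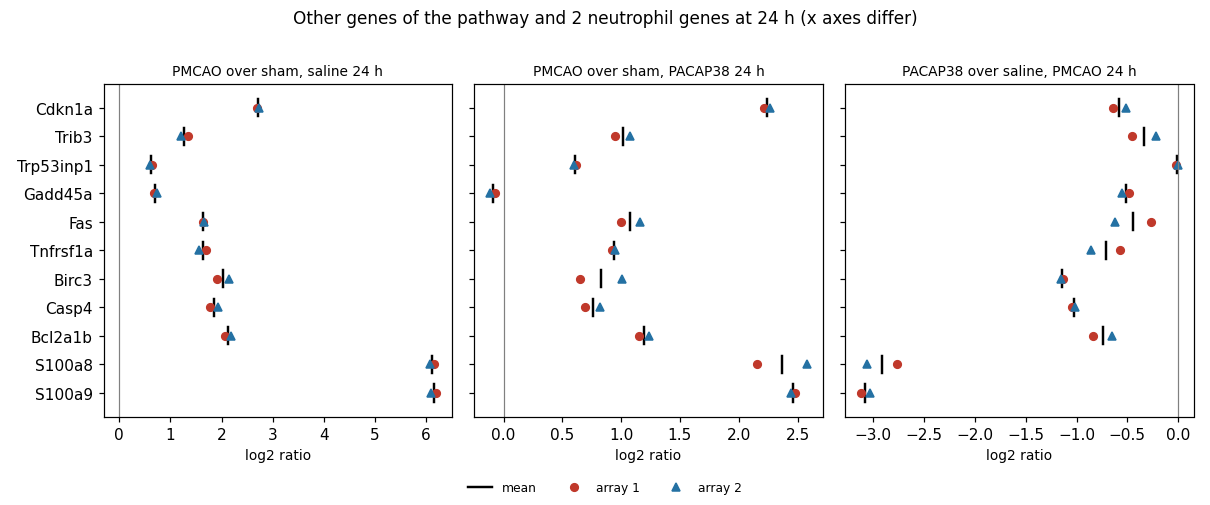
Log2 ratios at 24 h of 9 pathway genes outside the 9 members and of the neutrophil genes S100a8 and S100a9, for PMCAO over sham with saline, PMCAO over sham with PACAP38, and PACAP38 over saline in PMCAO; circles are array 1, triangles array 2 and bars the mean, and the axes differ. Cdkn1a is at 2.71 and 2.24 on the log2 scale in the left and middle panels, and S100a9 at -3.08 in the right panel.

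Ranked by the ratio of PMCAO over sham at 24 h with saline at the brightest probe of each gene, Pmaip1 came first (3.03-fold). Casp8 (1.53-fold) and Bbc3 (1.33-fold) followed, then Mcl1 (1.26-fold), Bcl2l1 (1.19-fold), Bax (1.15-fold) and Bcl2l11 (1.14-fold), then Casp9 (1.00-fold) and Bcl2 (0.546-fold). Bax, whose arrays gave log2 -0.0050 and 0.40, has no clear place among Mcl1, Bcl2l1, Bcl2l11 and Casp9. The arrays of Mcl1 (0.32 and 0.34), Bcl2l1 (0.23 and 0.27), Bcl2l11 (0.17 and 0.21) and Casp9 (0.076 and -0.075) lay closer together. Each ratio is of 1 PMCAO pool to 1 sham pool, so the order was not tested. The order depends on that choice of probes, since the upstream Mcl1 probe (3.07-fold) stood beside Pmaip1. Of the other Bcl2l1 probes, A_52_P510877 (1.66-fold) stood above Casp8 and A_51_P299454 (1.48-fold) stood between Casp8 and Bbc3. The levels of different probes were not compared, since probes bind unequally.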

How the data were processed

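Gene expression was measured on 8 two-colour Agilent arrays of 60-base probes, from pools of 3 mice (300 ng RNA each, 900 ng per labelling). The authors extracted the images with Feature Extraction; per the file headers the 6 h arrays used version 9.5.1.1 and those of 24 h used 9.5.3.1, the version in the submitters' processing notes. For every spot the authors deposited a log10 ratio, Cy5 divided by Cy3, made by the software from background-subtracted and dye-normalized signals. The deposited intensity columns hold processed, mean and background signals, and deposited flags mark outliers and spots well above background. The value table deposited by the authors holds the processed ratio of Cy5 over Cy3, and on arrays with PACAP38 in Cy3 a signed score, the same ratio with a minus sign. Its size was checked against the processed signals and differed by at most 0.005. The number of arrays limits the precision.

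These ratios were put on the log2 scale with PACAP38 as numerator, outlier and control spots were left out, and spots of one probe were averaged. For PMCAO over sham, processed signals were normalised by loess within and Aquantile between arrays, and channels of the same dye were compared. The 2 arrays of a comparison hold the same RNA by the methods, although the labels number them as pools, and were averaged as 1 replicate. limma 3.58.1 (R 4.3.3) was fitted over 4 pairs of pools and all probes, with Benjamini-Hochberg adjustment at 0.05. With 4 pairs a two-sided sign-flip test cannot go below 0.125. Known changes were also simulated on 40508 probes, with pairs drawn as independent, unlike the real ones. There the mean PMCAO over sham test recovered 16 of 67 at a log2 change of 1 and 50 of 67 at 2. Alternatives were normexp (offset 50), the 75th percentile, outlier spots kept, the deposited table, 1.5-fold either way, a filter on dim probes, left-out arrays and a replicate block. Some items are not reported here. Members and gene lists were chosen with earlier results of these data known. Named are all members, each by its brightest probe in full, and of the pathway lists genes past the limits on both arrays or passing the test, at most 4 per list and comparison, here at 24 h only, with the 6 h values of these lists left out and the marker lists given by sums, counts and S100a8 and S100a9; Apaf1 and Bak1, the 24 h values of Trp53, the PACAP38 over saline value of Fas, Foxo3 and further comparisons of genes so named lie outside that rule and were chosen after their values were seen. For members called in the mean PMCAO over sham test, of which there were none, genes of like pattern were to be named.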

Additional observations from a re-analysis of the deposited data

Results flagged for a closer look

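The PMCAO over sham ratio differed between 6 h and 24 h by limma's test at 3 of 16 member probes. The test called 8799 of 40508 probes (21.7%), so the share of the members was no larger than that of all probes. The log2 differences were -0.687 at Bcl2 A_51_P380013, 0.857 at Bcl2l1 A_51_P299454 and 0.586 at Bcl2l1 A_52_P148861. Time and slide cannot be told apart, none of the 3 passed without sham 6 h array 2, and 1 of the 3 passed with a replicate block.

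In other cases both arrays of one comparison had one sign and both arrays of another had the opposite sign, and the difference was not tested. PACAP38 over saline differed in this way between sham and PMCAO at 6 h, PMCAO minus sham, by 1.064 at the dim Bcl2 probe A_52_P438280, by -0.281 at Bcl2l1 A_51_P299454 and by -0.572 at Pmaip1 (log2). At 24 h it differed by -0.268 at Mcl1 A_51_P238786 and by -0.173 at Bbc3. Between 6 h and 24 h, 24 h minus 6 h, it differed by -1.372 at Mcl1 A_52_P93933 and by -0.358 at Bbc3 in PMCAO, and by -0.373 at Pmaip1 in sham. PMCAO over sham at Bcl2l1 A_51_P299454 was higher at 24 h than at 6 h by 0.782 with saline and by 0.931 with PACAP38. At Bcl2l11 A_52_P158527 the 24 h ratio with PACAP38 minus that with saline was -0.376, and these 2 comparisons come from the same arrays. The cases with opposite signs came from a screen of all member probes well above background over pairs of comparisons. The share of all probes that meet the same rule was not computed. The list therefore does not show that the members differ from other probes.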

How the results depend on the processing

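At probes well above background 23 single member values were past the limits. Of these, 22 kept their direction under all alternatives run, 13 of 13 at 24 h and 9 of 10 at 6 h. The exception was Casp8 with PACAP38 at 6 h (PMCAO over sham), from -0.025 without replicate 2 (reversed) to 1.213 without replicate 1. The values were chosen for lying past the limits, and every alternative reuses the same arrays. A kept direction is therefore no independent support. The number of member probes past the limits with normexp was 0 (main 1) for PACAP38 over saline in PMCAO at 6 h, 0 (main 2) in sham at 24 h, 2 (main 5) for PMCAO over sham with PACAP38 at 6 h and 4 (main 8) with saline at 24 h. In sham at 24 h it was 1 of 16 with 1.5-fold either way and 1 of 14 with the filter on dim probes. With outlier spots kept it was 8 of 16 for PMCAO over sham with PACAP38 at 6 h (main 5 of 12). With 1 array left out, PACAP38 over saline at 6 h gave 0 of 13 to 1 of 16 past the limits in sham. In PMCAO at 6 h it gave 1 of 15 to 3 of 16. At 24 h it gave 4 to 4 in sham and 3 to 5 in PMCAO, of 16 each. PMCAO over sham with saline at 6 h gave 2 of 16 to 6 of 12. By the mean of all probes of a gene, 2 genes (main 1) passed for PACAP38 over saline in PMCAO at 24 h and 1 (main 2) for PMCAO over sham with PACAP38 at 24 h.

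Same-numbered arrays of different groups deviated together (r from 0.232 to 0.639), and the number is the dye orientation. With the arrays as separate pools and a replicate block, limma called 2296 probes, 2 of them members, for the mean PMCAO over sham (main 0), and 2282 probes, 1 of them a member, for 24 h minus 6 h (main 8799 and 3). Without sham 6 h replicate 2, an alternative chosen after seeing the data, the latter called 68 probes and 0 members. Members called there were 7 with normexp and 5 with the 75th percentile, which moved the median of all probes to 0.12 and the calls from 4057 higher and 4742 lower to 6514 and 3659. Normexp called 12398 probes. The cause was not tested. No other call changed with the block. Dim probes such as Casp8 and Bcl2 A_52_P438280 are limited by signal over background.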
